A study of Mus musculus with 9 samples.

Results

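Selenoprotein P, its receptors and a set of selenium-sensitive selenoproteins were followed in the spleen of mice with and without Graves' disease, an autoimmune disorder in which antibodies against the thyrotropin receptor drive the thyroid to overproduce hormone. The set held 8 genes (Selenop, Lrp8, Lrp2, Selenow, Selenoh, Msrb1, Selenoo and Selenbp1) and consisted of every array probe whose accession maps to one of these symbols or to the older Sepp1, Sepw1, Selh, Sepx1 and Selo. These were 9 of 39429 non-control probes and 8 of 32451 genes or accessions, with 2 probes for Lrp8 and 1 for each other gene. All mice were female BALB/c, and 3 groups of 3 spleens were measured on 1 array each. Diseased mice fed little selenium made up the group low Se GD, diseased mice with an ordinary selenium supply the group normal Se GD, and disease-free mice fed little selenium the group low Se non-GD. The sources used here give neither the age of the mice, nor how the disease arose, nor what the diets contained. The question named in the study's title is the role of selenium intake in the risk and course of Graves' disease. By their labels, low Se GD and low Se non-GD differ in disease, and low Se GD and normal Se GD in supply. Normal Se GD and low Se non-GD differ in both, which cannot be told apart, and disease-free mice with an ordinary supply were not among the groups.

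Selenium enters selenoproteins as the amino acid selenocysteine, which is read from a UGA codon with the help of an RNA element in the message. Selenoprotein P is made mainly in the liver, carries many selenocysteines through the plasma, and is taken up by receptors of the LDL receptor family, apolipoprotein E receptor 2 (Lrp8) in brain and testis and megalin (Lrp2) in kidney tubules. When selenium is short, the messages of some selenoproteins decay more readily than those of others, and in rodents Selenow, Selenoh, Msrb1 and Gpx1 are among the sensitive ones. The spleen holds lymphocytes together with red pulp macrophages, which break down old red cells and recycle their iron.

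Of the 8 genes, 4 passed the test between low Se GD and low Se non-GD. The RefSeq promoter windows of these 4 (GRCm38.p6, all on the plus strand, running from before to after an annotated start) are shown because the 4 genes moved between the same groups of arrays. Capitals mark letters found by a search of both strands for the TATA box TATAAA, the GC box GGGCGG, the forkhead site GTAAACA, the GATA site AGATAA, the antioxidant response core TGACNNNGC and the interferon response core GAAANNGAAA. For Selenop the table holds 3 windows and the third is shown, chosen after its matches were seen, and for Lrp8 the first of 3.
Selenop, chr15:3270727-3271026: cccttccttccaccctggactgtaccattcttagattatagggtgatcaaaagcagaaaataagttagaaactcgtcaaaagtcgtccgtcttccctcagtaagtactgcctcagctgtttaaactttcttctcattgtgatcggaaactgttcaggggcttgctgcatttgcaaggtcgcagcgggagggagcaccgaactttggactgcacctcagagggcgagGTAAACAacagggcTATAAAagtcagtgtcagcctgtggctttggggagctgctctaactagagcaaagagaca
Msrb1, chr17:24736343-24736642: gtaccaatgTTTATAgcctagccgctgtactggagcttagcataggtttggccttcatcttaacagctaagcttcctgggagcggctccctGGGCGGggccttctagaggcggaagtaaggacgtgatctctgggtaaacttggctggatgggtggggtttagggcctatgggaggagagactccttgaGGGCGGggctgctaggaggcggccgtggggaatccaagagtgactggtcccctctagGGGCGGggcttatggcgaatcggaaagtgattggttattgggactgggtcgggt
Selenbp1, chr3:94932833-94933132: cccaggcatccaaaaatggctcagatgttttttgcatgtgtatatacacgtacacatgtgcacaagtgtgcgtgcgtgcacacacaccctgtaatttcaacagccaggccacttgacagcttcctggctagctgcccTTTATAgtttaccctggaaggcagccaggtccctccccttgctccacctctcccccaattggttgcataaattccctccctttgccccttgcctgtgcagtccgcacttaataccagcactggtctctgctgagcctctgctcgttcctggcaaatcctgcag
Lrp8, chr4:107802635-107802934: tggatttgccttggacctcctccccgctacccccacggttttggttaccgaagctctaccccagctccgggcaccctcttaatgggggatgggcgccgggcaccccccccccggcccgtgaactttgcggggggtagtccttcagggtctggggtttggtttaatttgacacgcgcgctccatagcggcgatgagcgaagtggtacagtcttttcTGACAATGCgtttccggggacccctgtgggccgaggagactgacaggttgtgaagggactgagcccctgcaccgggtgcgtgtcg
The Selenop window held GTAAACA at position -24 and TATAAA at -10 from the start, counted to the first letter of the match. Msrb1 had 3 GC boxes, at -159, -61 and -4, and a TATA box on the other strand at -241. Selenbp1 had only a TATA box on the other strand, at -113, and Lrp8 only the antioxidant response core, at -35. The other 2 Selenop windows overlap and share 1 copy of the interferon response core, at -164 from one start and -208 from the other. They held none of the other letters searched, and the other 2 Lrp8 windows held no match. Among 32544 promoter windows of the same length, 13.6% held TATAAA, 35.9% GGGCGG, 3.66% GTAAACA, 11.2% AGATAA, 12.4% TGACNNNGC and 3.45% GAAANNGAAA. None of the 6 motifs was found in all 4 of the windows shown.

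The level of a probe is given below as the log2 of its background-subtracted signal minus the 75th percentile of its array, so that 0 stands for a signal at that percentile. On 8 arrays 72.6% to 82.6% of non-control spots were well above background, and on normal Se GD replicate 3 58.4% were. All 10 B cell markers and all 9 T cell markers on the arrays were well above background on every array. Arrays whose scanner headers share a scan date entry were taken as 1 slide, and no slide name was read. By slide in this sense, low Se GD replicate 1 shared slide 1 with the whole low Se non-GD group. Low Se GD replicates 2 and 3 shared slide 2 with replicates 1 and 2 of normal Se GD, and the third normal Se GD array was alone on slide 3. For 70.7% of 13363 genes low Se GD replicate 2 was the middle array of its group, and for 79.0% replicate 3 was that of low Se non-GD. In normal Se GD the highest such share was 54.2%, for replicate 1. The tests below assume that the arrays of a group are independent of each other, which was not tested. A probe for 28S ribosomal RNA (Rn28s1) read 3.003 to 5.59 in low Se GD spleens and 4.93 to 5.99 in normal Se GD, against 0.45 to 0.83 in low Se non-GD. An Agilent spike-in transcript (E1A) read 1.01 to 2.51 in low Se GD spleens and 0.87 to 2.37 in normal Se GD, against 4.72 to 5.85 in low Se non-GD. Both technical probes separate the diseased groups from low Se non-GD, as many results below do, and their part in those results was not tested. Separate animals are not stated for the samples of a group, so p-values reflect only how far these samples scatter, and that scatter may be technical. In these bulk spleen samples fewer cells of a type and less RNA per cell cannot be told apart.

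At low selenium supply, Selenop, Msrb1 and Selenbp1 were higher and Lrp8 was lower in mice with Graves' disease than in mice without it. These 4 of 8 genes (50%) stand beside 24.9% of all 26325 genes tested that were called in either direction, 12.8% as higher and 12.2% as lower (limma, Benjamini-Hochberg adjusted p under 0.05). Both groups were free of overlap for 5 of the 8 genes, 4 of them higher in low Se GD (29.5% of all genes were so) and 1 lower (23.4%). The median log2 fold change of the 8 genes was 0.09 and that of all genes 0.08. Selenow, Selenoh, Selenoo and Lrp2 did not pass the test.

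Within mice with Graves' disease, none of the 8 genes passed limma's test between low and normal supply. A count of 0 of 8 stands beside 1.27% of all genes, 0.292% called as higher and 0.976% as lower. At an unadjusted p under 0.05 there were 3 of the 8 genes (Selenop, Lrp8 and Selenbp1), as there were 5112 of all 26325. Values did not overlap for Selenbp1, higher in low Se GD (11.4% of all genes), or for Lrp8 and Selenoo, both lower (17.9%). The median log2 fold change was -0.0002 for the 8 genes and -0.0003 for all genes.

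Normal Se GD, set against low Se non-GD, had higher Selenop, Msrb1 and Selenoo and lower Lrp8. Those 4 of 8 genes stand beside 32.3% of all genes called, 18.9% as higher and 13.4% as lower. These 4 were also the genes without overlap, 3 higher (28.0% of all genes) and 1 lower (21.1%). The 3 comparisons share samples pairwise, since each group enters 2 of them.

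**Figure D1:**
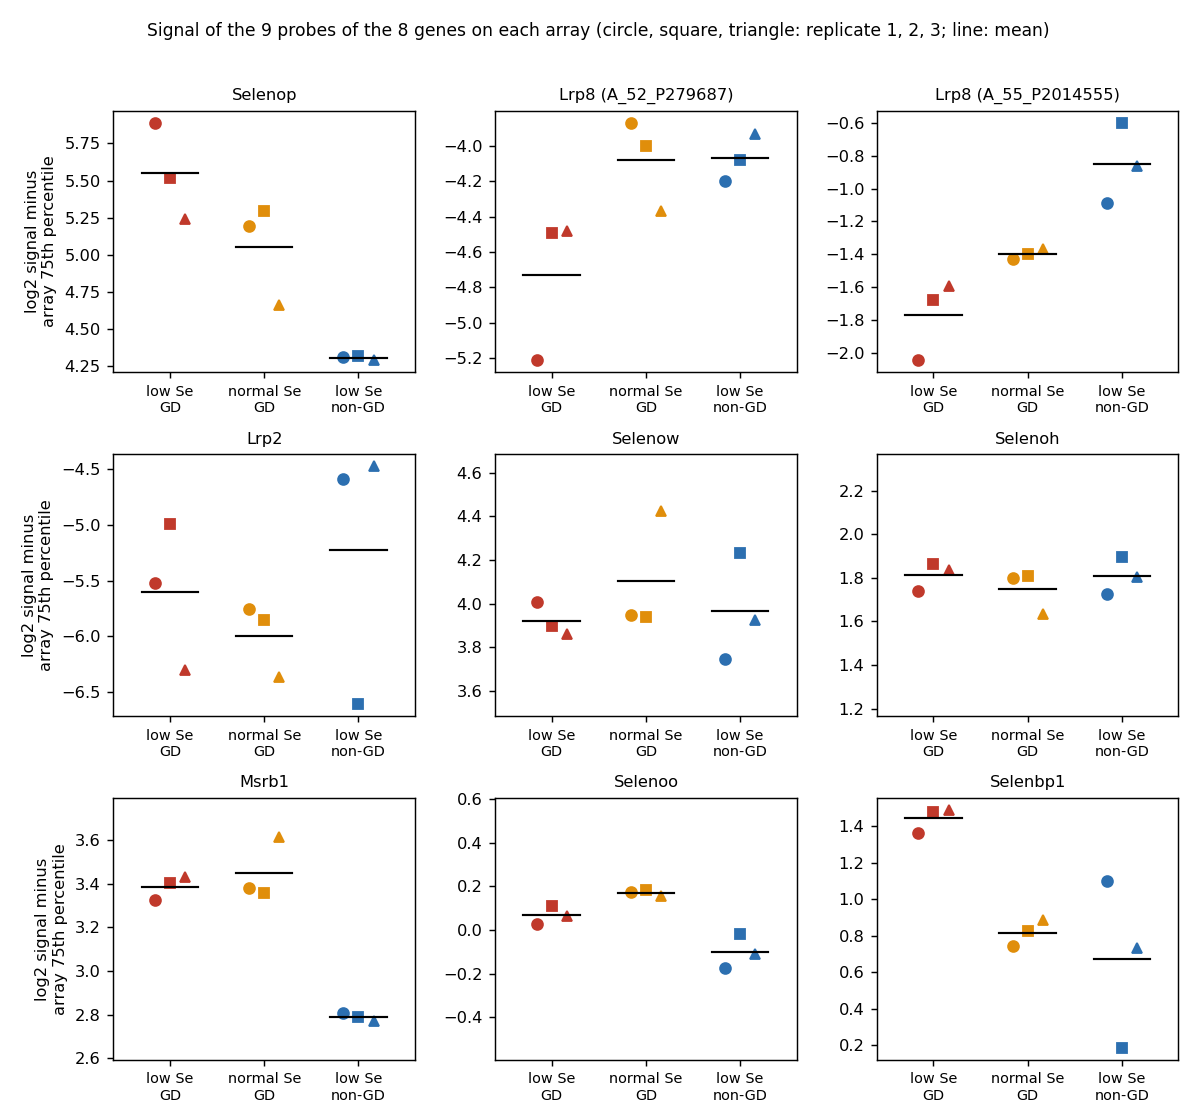
Level of each of the 9 probes (vertical axis, log2 signal minus the 75th percentile of the array) on the 9 arrays, with groups along the horizontal axis, 1 symbol per replicate and a line at the mean of 3. Selenop lies between 5.24 and 5.89 in low Se GD and between 4.66 and 5.30 in normal Se GD, above the 4.29 to 4.32 of low Se non-GD, and the main Lrp8 probe runs the other way.

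The transport protein itself, Selenop (probe A_51_P470328), had levels of 5.89, 5.52 and 5.24 in low Se GD mice, 5.19, 5.30 and 4.66 in normal Se GD, and 4.31, 4.32 and 4.29 in low Se non-GD. Every diseased sample lay above every non-diseased one, the non-diseased samples lay close together, and the diseased groups overlapped with each other. The means were 5.55 ± 0.33 in low Se GD, 5.05 ± 0.34 in normal Se GD and 4.31 ± 0.015 in low Se non-GD (SD, n = 3 each). Low Se GD exceeded low Se non-GD by 1.24 ± 0.21 (log2, SE), or 2.37-fold, with a limma adjusted p of 0.0052. Slide 1 sets 1 low Se GD array beside the 3 low Se non-GD arrays, and the difference there was 1.58, a value without a test. A fit with slide as a fixed block rests on the same 4 arrays for its difference (1.58), takes the spread from all slides and assumes that the lone array varies like the others (adjusted p = 0.0019). Of the 8 genes, Selenop and Msrb1 kept their calls in that comparison under all 21 alternatives with a test, and Selenop lay between 1.07 and 1.58.

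Between the supplies, Selenop was 0.50 ± 0.21 higher in low Se GD than in normal Se GD, with a 95% interval of 0.02 to 0.98, an unadjusted p of 0.0447 and an adjusted p of 0.245 in limma. On slide 2 alone the difference was 0.13 (adjusted p = 0.462). A difference between supplies was thus not detected with 3 arrays a group, and the interval reaches up to 0.98. Normal Se GD exceeded low Se non-GD by 0.74 ± 0.21, or 1.68-fold (limma adjusted p = 0.029). That call ended when low Se GD replicate 2 was left out (adjusted p = 0.0513), as it did for normal Se GD replicate 1 (0.0856) or 2 (0.0881) and for low Se non-GD replicate 1 (0.0687), 2 (0.0708) or 3 (0.0854), while the difference stayed between 0.62 and 0.94. With slide as a fixed block it was 1.45 (adjusted p = 0.0080), although no slide holds both groups, so that this value is bridged through the single low Se GD array on slide 1.

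Of the receptors, Lrp8 encodes apolipoprotein E receptor 2, which also binds reelin and was named for its apolipoprotein ligand. Its brighter probe (A_55_P2014555) had levels of -2.05, -1.68 and -1.59 in low Se GD mice, -1.42, -1.40 and -1.36 in normal Se GD, and -1.08, -0.60 and -0.86 in low Se non-GD. The 3 groups followed each other without overlap, low Se GD lowest and low Se non-GD highest. Group means were -1.77 ± 0.24 in low Se GD, -1.40 ± 0.03 in normal Se GD and -0.85 ± 0.24 in low Se non-GD. Against low Se non-GD, Lrp8 fell by 0.92 ± 0.16 in low Se GD, which is 1.90-fold (limma adjusted p = 0.0059), and by 0.55 ± 0.16 in normal Se GD, or 1.46-fold (adjusted p = 0.0345). Between low Se GD and normal Se GD the difference was -0.38 (95% interval -0.75 to -0.0021, adjusted p = 0.255).

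On slide 1, with its single low Se GD array, Lrp8 differed by -1.20 between low Se GD and low Se non-GD, and with slide as a fixed block, which rests on the same arrays, the adjusted p was 0.0112. The call held in 20 of 21 alternatives with a test and ended with 6 arrays (-0.98, adjusted p = 0.0626). The call between normal Se GD and low Se non-GD was less stable: it held in 11 of 21 alternatives and ended on leaving out low Se GD replicate 2 (adjusted p = 0.0573), normal Se GD replicate 1 (0.0872) or 2 (0.0804), or low Se non-GD replicate 2 (0.0997) or 3 (0.0939). It also ended with quantile normalization (0.0666), median scaling (0.109), the authors' deposited table (0.0646), 6 arrays (0.147) and the mean of both probes, which gave -0.28 (0.263), while slide as a fixed block gave -0.97, bridged as above. A dimmer Lrp8 probe (A_52_P279687), well above background on 8 of 9 arrays, had levels of -5.21, -4.49 and -4.48 in low Se GD mice, -3.87, -4.00 and -4.37 in normal Se GD, and -4.20, -4.08 and -3.94 in low Se non-GD. By this probe low Se GD lay below both other groups without overlap, and normal Se GD overlapped with low Se non-GD. In the fit of all probes its difference was -0.66 ± 0.22 between low Se GD and low Se non-GD (adjusted p = 0.0661, with 25.1% of probes called), -0.65 between low Se GD and normal Se GD (0.152, with 2.18% called) and -0.01 between normal Se GD and low Se non-GD (0.978, with 33.5% called). For the dimmer probe, alternatives with a test moved the first of these between -1.14 and -0.07, with 3 of 19 past the threshold. The second moved between -0.91 and -0.16, with 3 of 20. Without low Se GD replicate 1 they were -0.42 and -0.41. Both probes had negative differences in the first 2 comparisons, and in the third the dimmer one was near 0.

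Lrp2 encodes megalin, the large endocytic receptor of kidney tubules and thyroid cells, and its probe (A_52_P285470) was near background in the spleen. It was well above background on 6 of 9 arrays, 2 in each group, with levels of -5.52, -4.99 and -6.30 in low Se GD mice, -5.75, -5.86 and -6.37 in normal Se GD, and -4.59, -6.61 and -4.47 in low Se non-GD. The groups overlapped, and the 3 non-diseased samples spanned the whole range. The differences were -0.38 ± 0.59 between low Se GD and low Se non-GD, 0.39 ± 0.59 between low Se GD and normal Se GD, and -0.77 ± 0.59 between normal Se GD and low Se non-GD (adjusted p = 0.684, 0.754 and 0.358). With 1 array left out the first lay between -1.08 and -0.0063 and the second between 0.08 and 0.74, and quantile normalization gave 1.11 for the second. The last became a call once low Se non-GD replicate 2 was dropped (-1.46, adjusted p = 0.0328). Markers of kidney tubule and thyroid epithelium (7 on the arrays, Tshr well above background on too few to be tested) summed to 1.65 to 2.27 times the 75th percentile of the array in low Se GD spleens and 0.446 to 2.37 in normal Se GD, against 6.96 to 16.6 in low Se non-GD. Their part in the Lrp2 values was not tested.

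**Figure D2:**
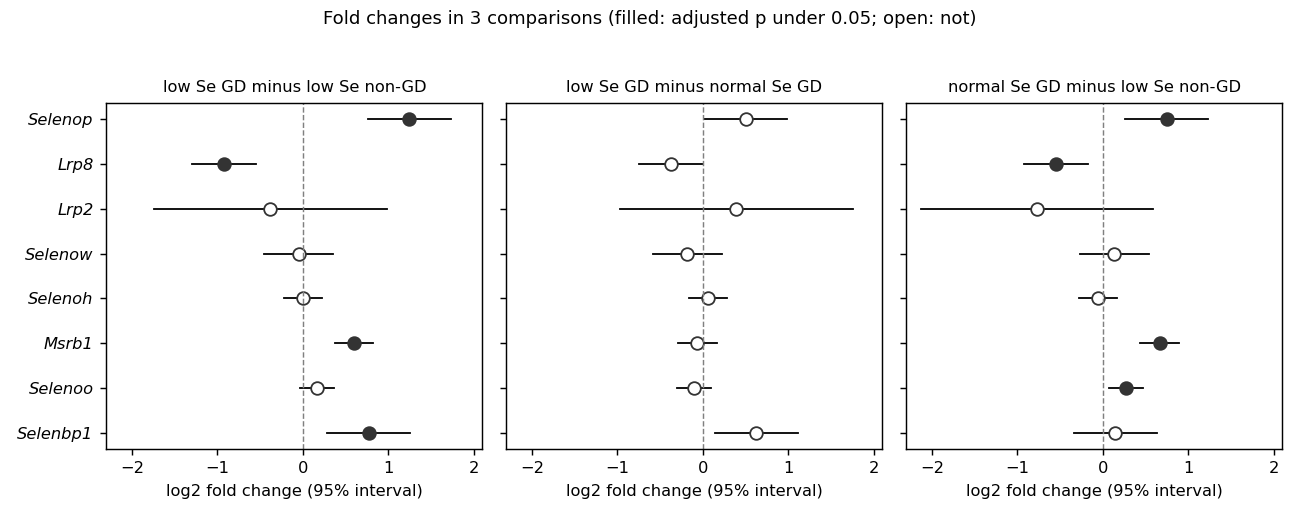
Log2 fold change (horizontal axis) of the 8 genes with its 95% interval in the 3 comparisons, filled where limma's adjusted p is under 0.05. Filled points are Selenop, Lrp8, Msrb1 and Selenbp1 in low Se GD minus low Se non-GD, none in low Se GD minus normal Se GD, and Selenop, Lrp8, Msrb1 and Selenoo in normal Se GD minus low Se non-GD, and Lrp2 has the widest intervals.

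Msrb1 encodes methionine sulfoxide reductase B1, a selenoenzyme that repairs oxidised methionine and reverses the oxidation of actin by the MICAL enzymes. Levels of its probe (A_55_P1990919) were 3.33, 3.40 and 3.43 in low Se GD mice, 3.38, 3.36 and 3.61 in normal Se GD, and 2.81, 2.79 and 2.77 in low Se non-GD. All 6 diseased samples lay above all 3 non-diseased ones by more than the spread within any group, and the diseased groups overlapped. Means were 3.39 ± 0.05 in low Se GD, 3.45 ± 0.14 in normal Se GD and 2.79 ± 0.018 in low Se non-GD. Compared with low Se non-GD, Msrb1 was higher by 0.60 ± 0.098 in low Se GD (1.51-fold, limma adjusted p = 0.0048) and by 0.66 ± 0.098 in normal Se GD (1.58-fold, adjusted p = 0.0024). The call between normal Se GD and low Se non-GD was kept under all 21 alternatives. So was that between low Se GD and low Se non-GD under the 21 with a test, at 0.54 to 0.70, and on slide 1, without a test, the difference was 0.54. Between the supplies Msrb1 differed by -0.06 (95% interval -0.29 to 0.16, adjusted p = 0.754), and by 0.05 on slide 2 alone.

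Selenow encodes selenoprotein W, a small redox protein, and its probe (A_55_P2052924) had levels of 4.01, 3.90 and 3.86 in low Se GD mice, 3.95, 3.94 and 4.42 in normal Se GD, and 3.75, 4.23 and 3.92 in low Se non-GD. All 3 groups overlapped. The difference between low Se GD and normal Se GD was -0.18 (95% interval -0.58 to 0.22, limma adjusted p = 0.611). Between low Se GD and low Se non-GD it was -0.05 (interval -0.45 to 0.36), and between normal Se GD and low Se non-GD 0.13 (interval -0.27 to 0.54).

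Selenoh, which encodes a nucleolar selenoprotein, had values that hardly differed between the groups. Its probe (A_55_P2010704) read 1.74, 1.86 and 1.83 in low Se GD mice, 1.80, 1.81 and 1.64 in normal Se GD, and 1.72, 1.90 and 1.80 in low Se non-GD. All 3 ranges overlapped. Differences were 0.0042 between low Se GD and low Se non-GD (95% interval -0.22 to 0.23, limma adjusted p = 0.981), 0.06 between low Se GD and normal Se GD (interval -0.16 to 0.29, adjusted p = 0.751), and -0.06 between normal Se GD and low Se non-GD (interval -0.28 to 0.16, adjusted p = 0.673).

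Selenoo encodes selenoprotein O, a mitochondrial pseudokinase that attaches AMP to other proteins. Its probe (A_51_P340947) had levels of 0.03, 0.11 and 0.06 in low Se GD mice, 0.17, 0.19 and 0.15 in normal Se GD, and -0.18, -0.02 and -0.11 in low Se non-GD. The groups did not overlap and were highest in normal Se GD and lowest in low Se non-GD, over a narrow span. Normal Se GD exceeded low Se non-GD by 0.27 ± 0.08, or 1.21-fold (limma adjusted p = 0.0418). That call held in 8 of 21 alternatives, and ended on omission of low Se GD replicate 2 (adjusted p = 0.0811) or 3 (0.0634), normal Se GD replicate 1 (0.105) or 2 (0.104), or low Se non-GD replicate 1 (0.111) or 3 (0.138), and with slide as a fixed block (0.22, adjusted p = 0.232). Low Se GD exceeded low Se non-GD by 0.17 (adjusted p = 0.190) and differed from normal Se GD by -0.10 (interval -0.30 to 0.09, adjusted p = 0.550).

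Selenbp1 encodes selenium-binding protein 1, which carries selenium without selenocysteine and oxidises methanethiol. Levels of its probe (A_55_P1961014) were 1.36, 1.48 and 1.49 in low Se GD mice, 0.74, 0.83 and 0.89 in normal Se GD, and 1.10, 0.19 and 0.74 in low Se non-GD. Every low Se GD sample lay above every sample of both other groups, and the non-diseased samples were the most spread out. Means were 1.44 ± 0.07 in low Se GD, 0.82 ± 0.07 in normal Se GD and 0.67 ± 0.46 in low Se non-GD. Low Se GD exceeded low Se non-GD by 0.77 ± 0.21, or 1.71-fold (limma adjusted p = 0.0314). This call held in 12 of 21 alternatives with a test and ended when an array was omitted, namely low Se GD replicate 1 (adjusted p = 0.0601), 2 (0.101) or 3 (0.0897), normal Se GD replicate 1 (0.0505) or low Se non-GD replicate 3 (0.0818), and with slide as a fixed block (0.69, adjusted p = 0.173), which rests on the slide 1 arrays alone for its difference.

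By supply, Selenbp1 was 0.63 ± 0.21 higher in low Se GD than in normal Se GD (95% interval 0.14 to 1.11, unadjusted p = 0.0176, limma adjusted p = 0.158). On slide 2 alone, where low Se GD 2 and 3 meet normal Se GD 1 and 2, the difference was 0.70 and passed the test (adjusted p = 0.0357). That fit called 2797 of all genes, against 334 as reported, and no other of the 22 alternatives gave this Selenbp1 call. Normal Se GD and low Se non-GD differed by 0.14 (adjusted p = 0.641), and by -0.10 without low Se non-GD replicate 2. Across the erythroid markers, 10 of 12 were on the arrays and all were well above background on every array. Their summed signal was 127, 158 and 188 in low Se GD mice, 77.1, 81.3 and 84.4 in normal Se GD, and 162, 51.3 and 105 in low Se non-GD, in multiples of the 75th percentile of the array. Within low Se non-GD the sample lowest in Selenbp1, replicate 2, was also the lowest in this sum, and the highest, replicate 1, the highest. No erythroid marker passed the test in any of the 3 comparisons, with median log2 fold changes of 0.82 for low Se GD minus low Se non-GD and, against normal Se GD, of 1.10. The part of erythroid cells in the Selenbp1 values was not tested.

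**Figure D3:**
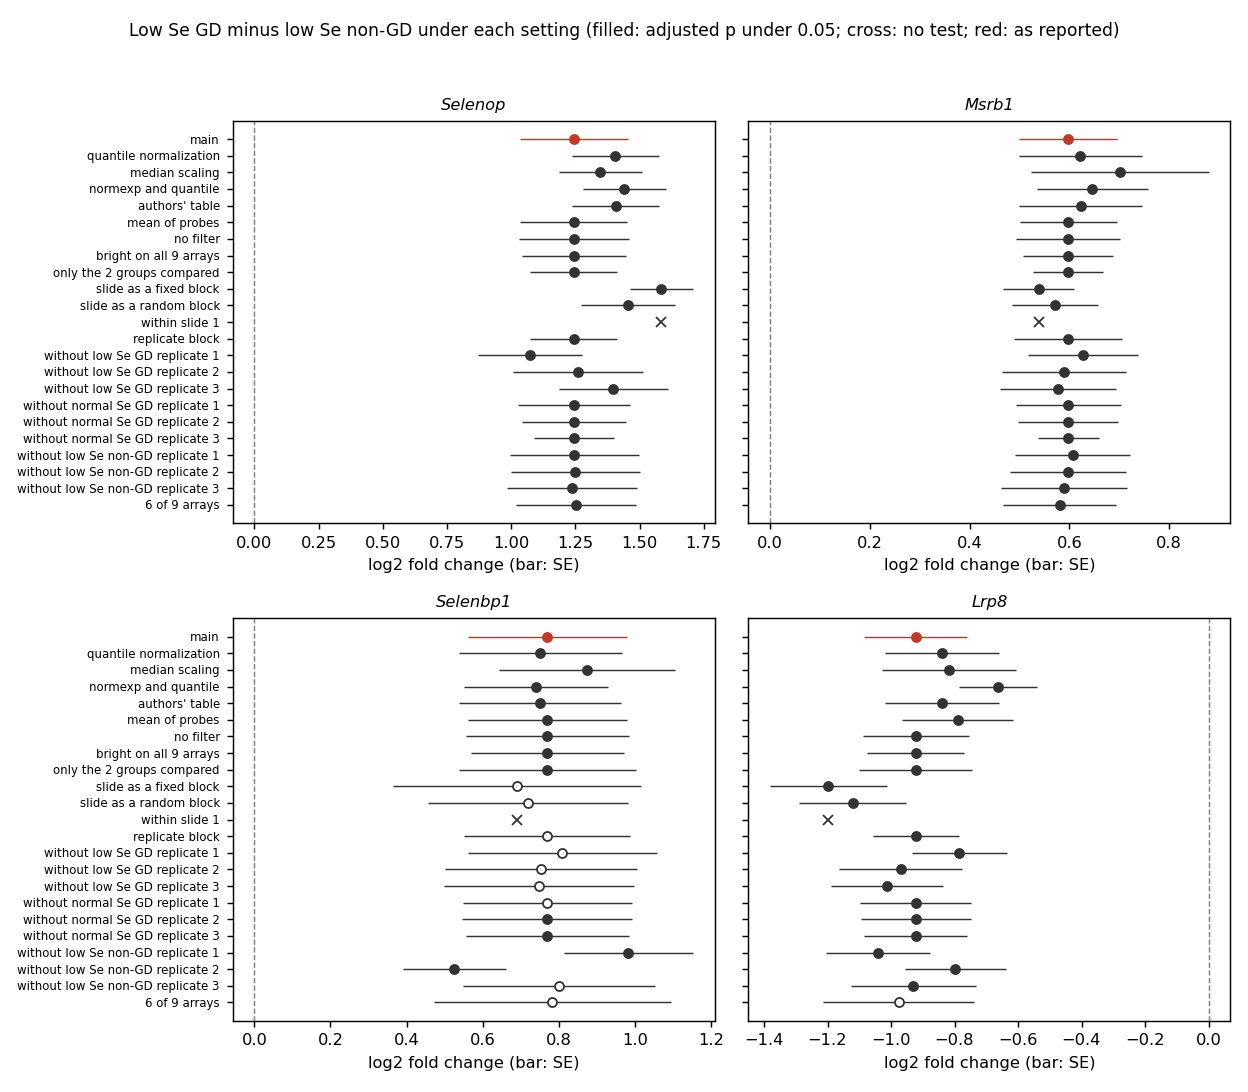
Log2 fold change between low Se GD and low Se non-GD with its SE (horizontal axis) for 4 genes under the reported setting (red) and each alternative (rows), filled where the adjusted p is under 0.05. A cross marks the slide 1 value, which has no test. Selenop and Msrb1 are filled in every other row, Lrp8 is open with 6 arrays, and Selenbp1 is open in 9 rows.

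The other 19 selenoproteins were all measured. Between low Se GD and low Se non-GD, 6 were higher, 2 were lower and 11 did not pass, beside 24.9% of all genes called in either direction. The median log2 fold change was 0.29, beside 0.08 for all genes. Higher were Sephs2 (1.60), which makes the selenium donor selenophosphate, Gpx3 (1.49), the plasma glutathione peroxidase, and Gpx1 (0.89), the cytosolic one. Also higher were Selenoi (0.63), a phospholipid-synthesis enzyme, Selenom (0.46) and Selenok (0.34), both of the endoplasmic reticulum. Dio3 (-0.98), the deiodinase that inactivates thyroid hormone, and Selenos (-0.57), an endoplasmic reticulum protein, were lower. The adjusted p was 0.0040 for Dio3, 0.0067 for Selenoi and 0.0244 to 0.0434 for the other 6. Dio3 and Selenoi kept their calls whichever array was left out, while of the 9 such fits 5 kept Selenom, 5 Sephs2, 4 Gpx3, 3 Selenok, 2 Gpx1 and 2 Selenos, with adjusted p-values of up to 0.120. The size for Sephs2 depended on the background correction, with 0.46 under normexp and quantile normalization (adjusted p = 0.0052).

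Gpx1, a selenium-sensitive enzyme like the selenoproteins above, had levels of 5.73, 5.79 and 5.90 in low Se GD mice, 5.50, 5.42 and 5.84 in normal Se GD, and 5.46, 4.34 and 4.95 in low Se non-GD. Low Se GD lay above low Se non-GD without overlap and overlapped with normal Se GD. Its call against low Se non-GD held in 8 of 21 alternatives with a test and, of single arrays, survived the loss of low Se non-GD replicate 1 and of the third normal Se GD array only. Gpx3 had levels of 2.64, 1.99 and 1.13 in low Se GD mice, 1.29, 0.91 and 1.86 in normal Se GD, and 0.51, 0.39 and 0.39 in low Se non-GD, and its call held in 14 of 21 alternatives with a test. Sephs2 was well above background on all but 1 of the arrays of low Se non-GD, with levels of -3.63, -3.84 and -4.13 in low Se GD spleens and -3.32, -3.24 and -3.74 in normal Se GD, against -4.67, -6.43 and -5.31 in low Se non-GD. Its 6 diseased samples all lay above the 3 non-diseased ones.

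Between the supplies 0 of these 19 passed limma's test, beside 1.27% of all genes, and the median log2 fold change was 0.0038. Normal Se GD, against low Se non-GD, had 6 higher and 1 lower, beside 32.3% of all genes called in either direction. The median was 0.29, beside 0.06 for all genes. Higher were Sephs2 (2.04, adjusted p = 0.0074), Selenom (0.75, 0.0030), Selenoi (0.68, 0.0037), Selenot (0.64, 0.0141), an endoplasmic reticulum thioredoxin-like protein, Txnrd1 (0.40, 0.0248), the cytosolic thioredoxin reductase, and Selenok (0.40, 0.0152). Dio3 was lower (-0.67, adjusted p = 0.0133). Leaving out 1 array at a time ended the call of Txnrd1 in 4 of 9 fits (adjusted p up to 0.0854), of Selenok in 2 (up to 0.0546) and of Selenot in 1 (0.0504), and none of the others. Under the other 12 alternatives the Dio3 call ended in 6, at -0.35 to -0.80 over all alternatives (adjusted p up to 0.167). With slide as a fixed block, bridged as above, Txnrd1 was at 0.10 (adjusted p = 0.580) and Selenot at 0.24 (0.134), neither of them called, and Sephs2 was 0.65 under normexp and quantile normalization. These are set beside the comparison above without a test of their likeness, since both use the low Se non-GD samples.

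**Figure D4:**
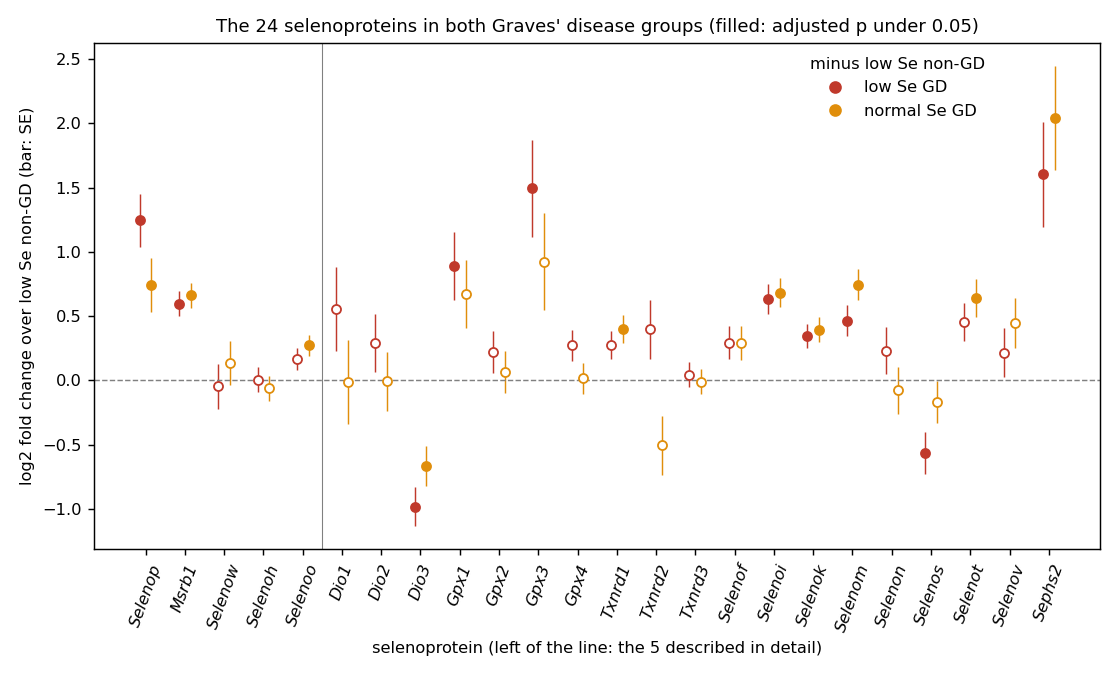
Log2 fold change over low Se non-GD with its SE (vertical axis) of 24 selenoproteins in low Se GD (red) and normal Se GD (orange), filled where the adjusted p is under 0.05. Sephs2 reaches 1.60 and 2.04 and Dio3 lies at -0.98 and -0.67, while Selenow and Selenoh lie near 0 in both.

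Of 9 genes that make or insert selenocysteine, 1 passed between low Se GD and low Se non-GD, Scly (0.48, adjusted p = 0.0237), the lyase that frees selenium from selenocysteine. Its levels were 0.16, 0.34 and 0.46 in low Se GD, against -0.09, -0.24 and -0.13 in low Se non-GD. The 1 call among 9 genes stands beside 24.9% of all genes, and the list's median was 0.03. None passed between the supplies, where 1.27% of all genes did. Between normal Se GD and low Se non-GD, Sepsecs (0.36, adjusted p = 0.0285), which completes selenocysteine on its transfer RNA, was higher, and Secisbp2l (-1.58, 0.0129), a relative of the protein that binds the RNA element of selenoprotein messages, was lower, with a list median of 0.12. These 2 of 9 stand beside 32.3% of all genes called. With 1 array left out, Scly passed in 5 of 9 fits (adjusted p up to 0.0887), Sepsecs in 4 (up to 0.121) and Secisbp2l in 9. Over all 21 alternatives with a test, Scly passed in 14, Sepsecs in 7 and Secisbp2l in 18 (adjusted p up to 0.193 for Secisbp2l).

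Among 17 receptors of the LDL receptor family and their partners, 14 could be tested, and Lrp1b, Lrp4 and Reln were too dim. Between low Se GD and low Se non-GD 3 were higher, Dab2 (1.31, adjusted p = 0.0029), an adaptor that binds the tails of megalin and its relatives, Lrp1 (0.82, 0.0349), a broad scavenger receptor, and Lrp12 (0.50, 0.0150). Lrp6, a co-receptor of Wnt signalling, was lower (-1.18, adjusted p = 0.0123), and the list's median was 0.13. These 4 of 14 stand beside 24.9% of all genes called. Dab2 had levels of -3.00, -3.00 and -3.10 in low Se GD spleens and -2.78, -2.61 and -2.50 in normal Se GD, against -3.95, -4.71 and -4.38 in low Se non-GD. The 6 diseased samples lay well above the non-diseased ones. Between the supplies 0 of the 14 passed, beside 1.27% of all genes. Between normal Se GD and low Se non-GD the same 4 genes passed, Dab2 at 1.72, Lrp1 at 0.97, Lrp12 at 0.51 and Lrp6 at -1.33, with a median of 0.09. Of all genes 32.3% passed there. In the comparison at low supply, Dab2 and Lrp6 passed in all 9 fits that leave out 1 array, Lrp12 in 7 (adjusted p up to 0.0696) and Lrp1 in 2 (up to 0.108). In that of normal Se GD, 8 of 9 such fits kept Lrp1 (adjusted p up to 0.0543) and 9 the other genes named. Over all 21 alternatives with a test, Lrp6 passed in 18 in each comparison (adjusted p up to 0.0922 and 0.222). Dab2 passed in 21 in each, at 0.57 to 1.51 at low supply. Lrp1 passed in 9 at low supply and 17 in the comparison of normal Se GD, and Lrp12 in 18 and 21.

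The other methionine sulfoxide reductases and the MICAL oxidases, whose action Msrb1 reverses, numbered 6. Between low Se GD and low Se non-GD, Mical1 was lower (-0.54, adjusted p = 0.0269) and none was higher, with a median of -0.16. This 1 call among 6 stands beside 24.9% of all genes. The call of Mical1 held in 4 of 9 fits with 1 array left out (adjusted p up to 0.0914). Msrb3, which holds cysteine in place of selenocysteine, had levels of -2.54, -2.63 and -2.75 in low Se GD mice, -1.84, -1.82 and -1.29 in normal Se GD, and -2.34, -2.76 and -2.51 in low Se non-GD. It was lower in low Se GD than in normal Se GD (-0.99, adjusted p = 0.0490), a call that held in 6 of 22 alternatives and in 1 of 9 fits with an array left out (adjusted p up to 0.214), and higher in normal Se GD than in low Se non-GD (0.89, adjusted p = 0.0077). Msrb3 was the only call among the 6 in either comparison, beside 1.27% and 32.3% of all genes. Selenbp2, the close relative of Selenbp1, had no named probe.

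Markers of several cell types separated the diseased from the non-diseased samples, as Selenop did. Beside the counts below, 12.8% of all genes were called higher and 12.2% lower in low Se GD than in low Se non-GD. For normal Se GD against low Se non-GD these shares were 18.9% and 13.4%. Of 13 monocyte and macrophage markers measured, 7 were higher and 2 lower in low Se GD than in low Se non-GD, and 8 were higher in normal Se GD than in low Se non-GD. Their summed signal was 58.7 to 61.6 in low Se GD spleens and 62.9 to 73.2 in normal Se GD, against 39.0 to 45.0 in low Se non-GD. Of 9 red pulp macrophage markers, 6 were higher and 1 lower in low Se GD, and 8 higher and 1 lower in normal Se GD, each against low Se non-GD. They summed to 59.0 to 80.3 in low Se GD spleens and 77.4 to 86.6 in normal Se GD, against 55.1 to 56.6 in low Se non-GD. Neither list had a member called between the supplies, where 1.27% of all genes were called. Of 7 natural killer cell markers, 4 were higher in low Se GD than in low Se non-GD and 6 in normal Se GD than in low Se non-GD, with sums of 11.1 to 12.6 in low Se GD mice and 11.7 to 15.6 in normal Se GD, against 5.15 to 7.24 in low Se non-GD. Of 7 megakaryocyte and platelet markers, 4 and 3 were higher in the same comparisons, with sums of 30.4 to 39.8 in low Se GD mice and 33.5 to 42.2 in normal Se GD, against 15.9 to 25.0 in low Se non-GD. Summed signal of the 10 B cell markers ran the other way. It was 94.2 to 99.3 in low Se GD and 111 to 121 in normal Se GD, against 123 to 142 in low Se non-GD. Against low Se non-GD, the median log2 fold change of the 10 was -0.45 in low Se GD, with 1 positive. In normal Se GD it was 0.00085, with 5 positive. Of the 10 markers, 4 were lower and 0 higher in low Se GD than in low Se non-GD. In normal Se GD, 2 were lower and 1 higher than in low Se non-GD. Between the supplies, 2 were lower in low Se GD than in normal Se GD, beside 0.976% of all genes. The part of these cell types in the Selenop and Msrb1 results was not tested.

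Fat tissue markers gave another pattern. The 8 on the arrays summed to 69.1, 34.2 and 7.03 in low Se GD mice, 1.19, 1.06 and 0.911 in normal Se GD, and 5.93, 2.65 and 4.15 in low Se non-GD, with Lep well above background on none. Within low Se GD the sample highest in this sum was also the highest in Selenop and Gpx3, and the sample lowest in it was the lowest in both. Normal Se GD had the lowest fat signal of all and a Selenop level above that of low Se non-GD. Of the 7 that could be tested, 4 were higher and 1, Lipe, was lower in low Se GD than in low Se non-GD. Only Adipoq was called between the supplies, higher in low Se GD than in normal Se GD. Of all genes, 12.8% were called higher and 12.2% lower in the first of these, and 0.292% higher in the second. Hepatocyte markers (6 on the arrays, Apoa1 well above background on none) summed to 4.40 to 10.1 in low Se GD, 3.62 to 13.6 in normal Se GD and 3.24 to 3.88 in low Se non-GD, mostly from Apoa2, whose level was 3.32, 2.40 and 2.08 in low Se GD mice, 3.31, 3.76 and 1.80 in normal Se GD, and 1.91, 1.64 and 1.72 in low Se non-GD. The other 4 tested, Alb among them, lay between -7.35 and -4.25 over all arrays. None of the 5 tested was called between low Se GD and low Se non-GD, and 1, Fgb, was lower in normal Se GD than in low Se non-GD (-1.29, adjusted p = 0.0196). The shares of all genes called there were 24.9% and 32.3%. The part of fat or liver RNA in the Selenop values was not tested.

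**Figure D5:**
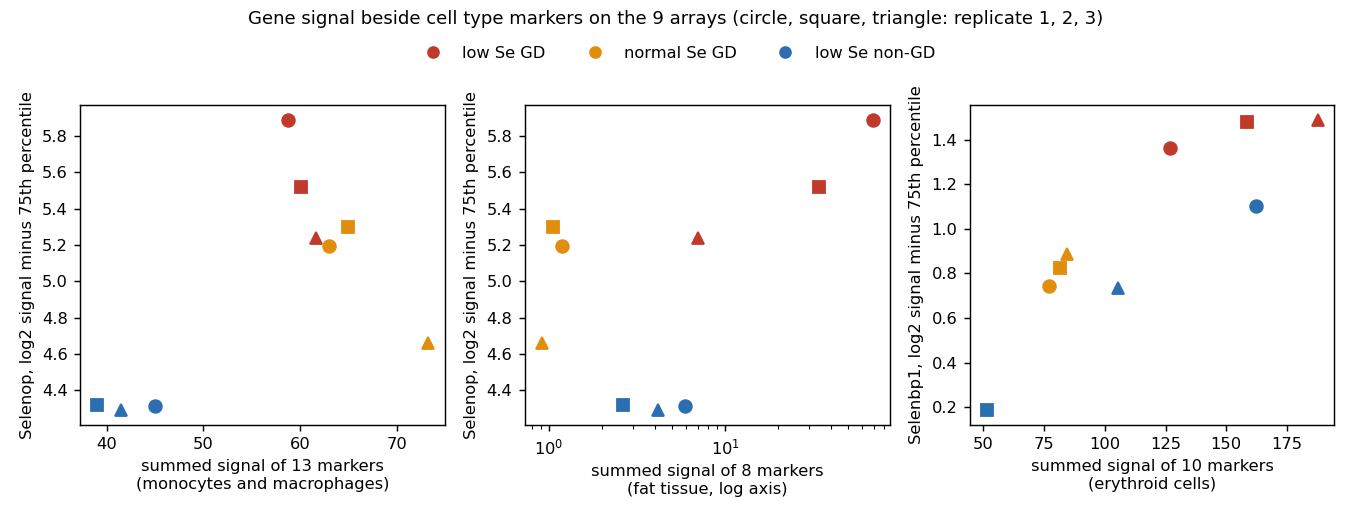
Level of Selenop or Selenbp1 on the 9 arrays (vertical axes, log2 signal minus the 75th percentile) against the summed signal of marker genes (horizontal axes, multiples of the 75th percentile), coloured by group. Diseased samples lie above low Se non-GD in both Selenop and the macrophage sum, fat markers spread from 0.911 to 69.1, and low Se GD replicate 3 is the highest in both Selenbp1 and the erythroid sum.

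For 4 of the genes, those with the most similar pattern over the 9 arrays were looked up among 13362 genes well above background on all arrays, by the root mean square difference of centred log2 levels. Nearest to Selenop were Sema3a (0.144), Stab1 (0.146) and Aldh6a1 (0.154), where the median gene lay 0.565 away. Nearest to Msrb1 were Herpud2 (0.0252), Ogfrl1 (0.0383) and Morc3 (0.0396), with a median of 0.334. Nearest to Selenbp1 were Bcl2l1 (0.0495), Slc22a23 (0.0577) and Tmem14c (0.0622), with a median of 0.450, and nearest to Lrp8 were Sh3rf3 (0.0885), Spin2c (0.105) and Nfkbie (0.112), with a median of 0.524. The points share arrays and scaling, and the differences describe these 9 arrays alone.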

How the data were processed

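Total RNA of 9 spleen samples had been hybridised to Agilent 1-colour whole mouse genome arrays (design 026655), 1 array per sample, per the labels' protocols. Each spot's processed intensity in the deposited files is linear, background-subtracted and spatially detrended, with no scaling from array to array, and comes from version 11.0.1.1 of Agilent Feature Extraction, per the file headers. The deposited files also mark spots that are well above background, saturated or irregular. The authors' deposited log2 table served as an alternative. No source used here states how the authors made it. All of its columns share a median of 6.43, its values look like log2 signals that were not centred by gene, and 6 of the 9 columns fit their own array better than any other. The remaining 3, all of low Se non-GD, fit a different array of that group, which leaves its replicate numbers, not its membership, in doubt.

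From the log2 of each processed signal the 75th percentile of the 43020 non-control spots on that array was subtracted. Irregular spots were dropped, replicate spots of a probe averaged, and a gene was represented by its probe with the highest mean. Probe accessions, without versions, were matched to RefSeq gene names of GRCm38.p6, which named 27234 of 39429 probes. There were 32451 genes or accessions. The filter (well above background on at least 3 arrays) dropped 6078 and marked spots dropped 48, which left 26325 to test. All 8 genes described here were among them, while the headers give mm9 as the build of the array design, so no probe coordinates are given.

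Group means were compared 2-sided by limma 3.58.1 (lmFit, then eBayes, in R 4.3.3), all 9 arrays in a single model, with 6 residual and 1.81 prior degrees of freedom. The threshold was a Benjamini-Hochberg adjusted p of 0.05, taken across every gene in the test, and a second model covered each probe (31868 tested). A log2 fold change is one group mean minus another, and ± is the SD of 3 arrays beside a mean and the SE beside a difference. The script was tested on simulated data. The number of arrays limits the precision. The 8 genes, the gene lists and the tests were chosen with earlier results of these data known. Named genes are the 8, every gene of 5 fixed pathway lists past the threshold (up to 8 per list and comparison, by size of change), and the 3 genes whose centred pattern lay nearest to that of Selenop, Msrb1, Selenbp1 or Lrp8. Same-numbered samples of different groups did not deviate together (correlations of deviations over 0.1 in 2 of 9 pairs, range -0.35 to 0.24), so replicate numbers were not taken to pair samples. The alternatives changed the scaling, background correction, probe choice, filter, samples, slide terms and source of values. Normexp was run on median signals, since mean signals are not in the scanner files used here. A fit of 6 arrays was added after seeing the data. It left out low Se GD replicate 2, normal Se GD replicate 3 and low Se non-GD replicate 3.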

Additional observations from a re-analysis of the deposited data

How the results depend on the processing

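Of the 509 recomputed fold changes of the 8 genes that have a test, 468 kept their side of the threshold, 39 lost and 2 gained a call, and 0 called values changed sign. Of the 468, 118 moved by over 1.5 times or changed sign, 33 of them uncalled values that changed sign. The fit within slide 1, with its single low Se GD array, is given as a value, and no call is read from it. The number of the 8 genes called was 4, 0 and 4 in the 3 comparisons (low Se GD minus low Se non-GD, low Se GD minus normal Se GD, and normal Se GD minus low Se non-GD, in this order below). With median scaling it was 2 in the last, within slide 2 it was 1 in the second, and with 6 arrays it was 2 in the first and also 2 in the last. Leaving out 1 array at a time gave 3 to 4, 0 to 0 and 1 to 4. Selenop in the last comparison lay between 0.62 and 0.94 when 1 array was left out. The replicate number as a block, where the numbers do not pair the samples, gave 3, 0 and 3 of the 8 genes and 5150, 0 and 7186 of all genes, with Selenbp1 in the first (adjusted p = 0.0588) and Selenoo in the last (0.0852) no longer called.

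Over all genes, low Se GD minus low Se non-GD gave 6556 calls, with 947 within slide 1 (1 low Se GD array, assumed to vary like the others) and 2930 with 6 arrays. For normal Se GD minus low Se non-GD there were 8514, with 5550 for 6 arrays and 4828 for slide as a fixed block. For low Se GD minus normal Se GD there were 334, but 0 with quantile normalization, median scaling, no filter, only the groups compared, the replicate block or 6 arrays, 3 with the authors' deposited table, 1288 with genes well above background on all 9 arrays, 1713 and 1939 with slide as a fixed or random block and 2797 within slide 2. Without 1 array at a time these 3 counts, in the order given at the start, ran from 3448 to 10786, 0 to 1076 and 5415 to 11539, and the highest for low Se GD against either other group came without normal Se GD replicate 3. The cause was not tested. Other scalings moved the median of all genes by at most 0.104 in the first comparison (median scaling), and slide as a fixed block moved it by -0.122 in the second. Of calls in the second, 23.1% were higher as reported, 33.3% of 3 in the authors' table and 45.3% within slide 2.

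The within-slide fit could not be made for the last comparison, as no slide holds both groups. Under the filter on all 9 arrays Lrp2 and the dimmer Lrp8 probe had no value. Low signal limits Lrp2, and the single probe of most genes leaves probe effects unchecked.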
